A study of Mus musculus and Rattus norvegicus with 26 samples.

Results

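Retained intronic sequence was examined in the nuclear genes for mitochondrial respiration, mitochondrial translation and mitochondrial protein import. These genes were chosen by symbol, as those that begin with Nduf, Sdh, Uqcr, Cox and a digit, Atp5, Mrpl, Mrps, Timm or Tomm. The rule found 179 genes among the 13695 genes with an intronic contig in any of 6 lists, and the symbol rule itself uses no measured value. A contig is a cluster of uniquely mapped reads inside an intron, in which reads up to 500 nt apart were joined, and each list pools libraries of a condition. The study asked how widely transcripts in the cytoplasm keep pieces of intron sequence, and compared dendrites, which hold no nucleus, with whole cells.

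The 26 libraries were all made by 3 rounds of aRNA amplification. In this method RNA is copied linearly from a T7 promoter that is carried on an oligo(dT) primer. Primary hippocampal neurons came from embryonic day 18 C57BL/6 mice, with 3 libraries of mechanically severed dendrites and 3 of single somas, and from embryonic day 18 Sprague-Dawley rats, with 2 dendrite and 3 soma libraries. The neurons had been grown in culture before their dendrites and somas were harvested. BAT cells were single cells of interscapular brown adipose tissue from embryonic day 17.5 CD-1 mice, with 6 libraries. Cardiomyocytes were single ventricular cells of embryonic day 14.5 transgenic C57BL/6 mice, with 9 libraries. These mice carried a hemizygous Fucci cell cycle probe, mAG-hGem, driven by the ubiquitous CMV promoter, and the cells had been sorted by flow cytometry. A dendrite library pools a large batch of severed dendrites, and somas, BAT cells and cardiomyocytes were collected with their nuclei, so nuclear pre-mRNA and cytoplasmic RNA cannot be told apart in them. The labels give these libraries, but which of the BAT and cardiomyocyte libraries entered the pooled lists was not given in the sources used here, and the study describes fewer cells of both. With 1 pooled list per condition there are no replicates, no comparison could be tested, and every interval is a 95% Wilson interval that covers counting error only.

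Respiration in the inner mitochondrial membrane passes electrons from NADH or succinate through complexes I and II to complex III and then to complex IV, which reduces oxygen. The protons pumped on the way drive ATP synthase. Most subunits of these complexes are encoded in the nucleus, made in the cytosol and drawn in through the outer membrane (Tomm) and inner membrane (Timm) translocases, while the remaining subunits are made inside the organelle by a dedicated ribosome whose Mrpl and Mrps proteins are also imported. Brown fat and heart muscle are among the tissues richest in mitochondria, and neurons place mitochondria in dendrites as well as in the soma.

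The lists held between 1007530 reads (rat dendrites) and 17858440 reads (BAT cells), counted over introns, so a gene with few intronic reads is more easily listed in the larger ones. The labelled cell types were checked against marker genes. Of 11 neuron markers, 8 had a contig in mouse dendrites, 10 in mouse somas, 5 in rat dendrites and 7 in rat somas, and Map2 had none in any list. Of 9 cardiomyocyte markers, 8 were listed in cardiomyocytes, each with a highly read intron as defined below. Of 9 brown adipocyte markers, 8 were listed in BAT cells with 156693 reads in all, but that list also held 7 of the 11 neuron markers with 18584 reads and 4 cardiomyocyte markers with 22833 reads. Mouse dendrites held 5 brown adipocyte markers with 681 reads and 5 cardiomyocyte markers with 1601 reads. Cardiomyocytes held 4 neuron markers with 4722 reads and 3 brown adipocyte markers with 3505 reads. Of other cell types, 1 microglial marker was highly read in each of mouse dendrites, rat dendrites and BAT cells, 1 astrocyte marker in BAT cells, 1 fibroblast marker in rat dendrites and 1 endothelial marker in mouse somas. The part of these other cell types in the results for the mitochondrial genes was not tested.

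Mitochondrial genes were present in all lists, and the most were listed in BAT cells, the list with the most reads. A contig was found in 88 of them in mouse dendrites, 92 in mouse somas, 77 in rat dendrites, 69 in rat somas, 161 in BAT cells and 127 in cardiomyocytes, in 143, 145, 128, 112, 447 and 276 introns. With at least 32 reads in an intron the numbers of genes were 42, 47, 19, 31, 124 and 90. At any number of reads, they made up 1.02% of the listed genes in mouse dendrites (interval 0.831 to 1.26) and 2.05% in cardiomyocytes (interval 1.72 to 2.43). The share was 1.56% in mouse somas, 1.72% in rat dendrites, 2.03% in rat somas and 1.58% in BAT cells. At 32 reads the shares were 0.781% in mouse dendrites, 1.47% in mouse somas, 0.872% in rat dendrites and 1.66% in rat somas. BAT cells and cardiomyocytes then had 1.79% and 2.24%. In the GENCODE annotation of the mouse, 196 coding genes with an intron carry these prefixes. Of these, 44.9% had a contig in mouse dendrites (interval 38.1 to 51.9), beside 43.9% of all annotated coding genes with an intron. In mouse somas the share was 46.9% (interval 40.1 to 53.9) beside 30.1% of all genes. In BAT cells it was 82.1% (interval 76.2 to 86.9) beside 51.9%, and in cardiomyocytes 64.8% (interval 57.9 to 71.1) beside 31.6%. Mouse dendrites were thus the list in which the share of mitochondrial genes lay near that of all genes. The mitochondrial genes reached these shares with shorter introns, since their longest intron had a median of 3184 nt against 7263 nt over all coding genes.

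Highly read introns were taken as those with a log2 read number of at least 8, a minimum that the study also used. Such an intron was present in 14 of the 88 mitochondrial genes of mouse dendrites, or 15.9% (interval 9.72 to 24.9), beside 23.5% of all listed genes. In mouse somas 6 of 92 had one, or 6.52% (interval 3.02 to 13.5), beside 18.7% of all. The rat lists gave 11.7% beside 15.8% in dendrites and 18.8% beside 30.4% in somas. BAT cells gave 46.0% (interval 38.4 to 53.7) beside 40.2%, and cardiomyocytes 38.6% (interval 30.6 to 47.3) beside 42.9%. The share of mitochondrial genes was below that of all genes in every list but BAT cells. The share of all genes lay above the interval in mouse somas and rat somas and inside it in the other 4 lists. With only contigs of at most 400 nt, a limit the study set for whole cells, reads were still those of the whole intron. The shares were then lower. They were 7.69% (interval 3.57 to 15.8) beside 16.4% of all genes in mouse dendrites, 4.11% (interval 1.41 to 11.4) beside 11.6% in mouse somas, 4.55% (interval 1.56 to 12.5) beside 7.70% in rat dendrites, 6.90% (interval 2.71 to 16.4) beside 14.0% in rat somas, 26.0% (interval 19.1 to 34.2) beside 25.7% in BAT cells and 20.2% (interval 13.5 to 29.2) beside 25.5% in cardiomyocytes. Under that limit the share of all genes lay above the interval in mouse dendrites and mouse somas and inside it in rat somas.

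**Figure D1:**
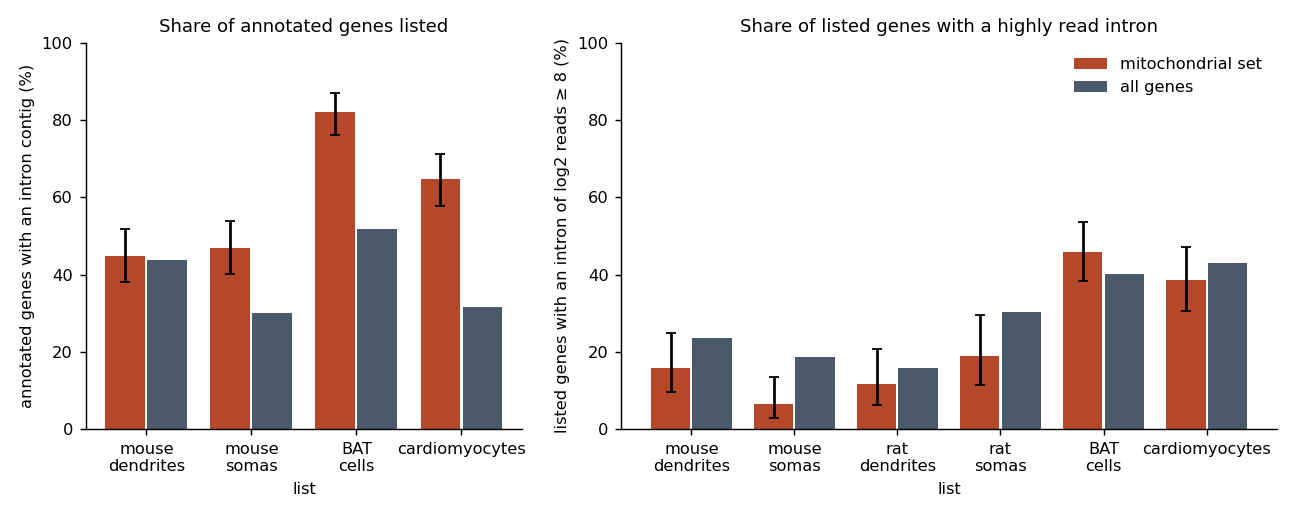
The left panel plots the percent of annotated genes with an intron contig in the 4 mouse lists and the right panel the percent of listed genes with a highly read intron (log2 reads of at least 8) in all 6 lists, for the mitochondrial genes (red bars, 95% Wilson interval) and for all genes (dark grey bars). The listed share of mitochondrial genes was 82.1% in BAT cells beside 51.9% of all genes and was close to that of all genes in mouse dendrites (44.9% and 43.9%), while in mouse somas 6.52% beside 18.7% had a highly read intron.

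Complex I, the NADH dehydrogenase that admits most electrons to the chain, had a contig in most of its mouse genes. Where a number of reads is given for a gene, with no scaling to the list, it is that of its most read intron in the list. Of its 42 annotated mouse genes, which include the Ndufaf assembly factors, 28 were listed in mouse dendrites, 29 in mouse somas, 37 in BAT cells and 35 in cardiomyocytes, and 21 in each rat list. These are 66.7%, 69.0%, 88.1% and 83.3% in the 4 mouse lists, beside the 43.9%, 30.1%, 51.9% and 31.6% of all coding genes. It held 22.2% of the reads of the mitochondrial genes in mouse dendrites, 34.4% in mouse somas, 53.1% in rat dendrites, 23.1% in rat somas, 62.1% in BAT cells and 38.4% in cardiomyocytes. In BAT cells 2 introns held much of this share. Intron 16 of Ndufs1, the largest iron-sulfur subunit of the complex, had 61138 reads in BAT cells, 21.5% of all reads of the mitochondrial genes there. Its contig of 704 nt lay inside an intron of 971 nt on chromosome 1, at chr1:63194266-63194969 on the minus strand of mm9, and touched no annotated exon. The same intron had 23 reads in mouse dendrites and was not listed in mouse somas or cardiomyocytes. Intron 5 of Ndufv2, another iron-sulfur subunit, had 34989 reads in BAT cells, or 12.3% of them, in 3 contigs that together covered 50.4% of the intron, against 4 in mouse dendrites, 10 in mouse somas and 118 in cardiomyocytes. One of the contigs overlaps an annotated U6 snRNA on the opposite strand, and the libraries do not tell strands apart.

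Ndufa1, a small membrane subunit needed for the assembly of complex I, was among the genes with an intron read in every list. It had 382 reads in mouse dendrites, 212 in mouse somas, 528 in rat dendrites, 151 in rat somas, 6331 in BAT cells and 11813 in cardiomyocytes. Intron 1 carried the most reads in the 4 neuronal lists and intron 2 in BAT cells and cardiomyocytes. Ndufa4, a subunit first assigned to complex I and later to complex IV, had 684 reads in mouse dendrites, 382 in mouse somas, 332 in rat dendrites, 243 in rat somas, 1369 in BAT cells and 1464 in cardiomyocytes, a narrow range beside that of Ndufs1. Ndufs4, an accessory subunit whose loss causes Leigh syndrome, had 1264 reads in intron 3 in rat dendrites, the most of any mitochondrial intron in that list, but 2 in rat somas, 72 in mouse somas and no contig in mouse dendrites. Ndufa9 had 975 reads in rat dendrites and 8763 in BAT cells, the latter in its last intron. Ndufc2 had 5772 reads in intron 1 in BAT cells, in 4 contigs of which 1 overlaps an annotated pseudogene, and 1224 in intron 1 in rat somas, beside 22 in mouse dendrites, 24 in mouse somas and 28 in rat dendrites. Intron 2 of Ndufa12 had 1129 reads in rat somas and 2 in rat dendrites. In mouse somas, intron 3 of Ndufa3 had 1546 reads in a contig that touches an exon of the gene, and intron 5 of Ndufs1 had 418. Ndufc2, Ndufa12 and Ndufa3 are accessory subunits.

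Complex II, succinate dehydrogenase, has few genes. Summed over its introns it had 65 to 684 reads in the neuronal lists, 9036 in BAT cells and 4657 in cardiomyocytes. The flavoprotein Sdha was listed with 12 introns in BAT cells, the highest being read 1148 times, and with 4 introns in cardiomyocytes with up to 1750 reads. It had 10 reads in mouse somas, 6 in rat dendrites and 52 in rat somas. Sdhb, the iron-sulfur subunit, was listed with 7 introns in each of BAT cells and cardiomyocytes, with up to 2839 and 1066 reads, and with 61 and 83 reads in mouse dendrites and somas. The neuronal lists held at most 3 introns of either gene.

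In complex III, the cytochrome bc1 complex, the core protein Uqcrc2 was highly read in mouse dendrites, where intron 7 lay exactly at the minimum of 8 on the log2 scale of reads. It had 2362 reads in mouse somas, 2 in rat dendrites, 1620 in rat somas, 4741 in BAT cells and 2788 in cardiomyocytes. The intron differed between lists. Intron 10 was read 2362 times in mouse somas, in a contig of 611 nt that starts at the 5′ end of the intron, but 36 times in cardiomyocytes, and it was not listed in mouse dendrites. Intron 13, the last of the transcript, had 4741 reads in BAT cells and 2788 in cardiomyocytes against 84 in mouse dendrites and 113 in mouse somas. Intron 7 held the most reads in mouse dendrites and also in rat somas (1620), while mouse somas had 286, BAT cells 29 and cardiomyocytes 10 reads in it. Uqcrq, a small subunit, was listed in rat dendrites alone, with 584 reads.

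Complex IV, cytochrome c oxidase, has subunits with isoforms of different tissues, and the lists held them unevenly. Cox7a2, the widespread isoform, had 729 reads in mouse dendrites, 24 in mouse somas, 2422 in BAT cells and 622 in cardiomyocytes. Cox7a1, the isoform of heart and skeletal muscle, which is also found in brown fat, had 1832 reads in BAT cells and 226 in cardiomyocytes and no contig in the 4 neuronal lists. Cox8b, another isoform of muscle and brown fat, had 447 and 38 reads in these lists, and the muscle isoform Cox6a2 had 4 and 35, and neither was listed in neurons. The widespread Cox6a1 had 10 reads in mouse dendrites, 62 in mouse somas, 239 in BAT cells and 219 in cardiomyocytes. Cox7a2 and Cox6a1 too were in neither rat list. Cox19, a copper-binding assembly protein, had 2310 reads in rat somas and 2901 in BAT cells but 87 in mouse dendrites and 12 in rat dendrites, and none in mouse somas or cardiomyocytes.

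Of 17 annotated ATP synthase genes, 11 were listed in mouse dendrites, 13 in mouse somas, 14 in BAT cells and 16 in cardiomyocytes, or 64.7%, 76.5%, 82.4% and 94.1%, beside 43.9%, 30.1%, 51.9% and 31.6% of all coding genes. The rat lists held 11 in dendrites and 14 in somas. Atp5g3, a gene for the c subunit of the membrane rotor, had 309 reads in mouse dendrites, 670 in mouse somas, 131 in rat dendrites, 664 in rat somas, 451 in BAT cells and 2932 in cardiomyocytes. In 5 of the 6 lists these were reads of intron 4, the last of the mouse transcript. In rat dendrites intron 3 had 131 and intron 4 had 110. Atp5b, the catalytic beta subunit, had 123, 97, 229, 191, 5236 and 3103 reads in the same order of lists. Atp5l, subunit g, had 988 reads in mouse somas and 1437 in BAT cells but 13 and 3 in rat dendrites and somas.

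The mitochondrial ribosome makes the few subunits encoded in the organelle. Of 47 annotated genes of the large subunit, 12 were listed in mouse dendrites, 13 in mouse somas, 41 in BAT cells and 25 in cardiomyocytes, or 25.5%, 27.7%, 87.2% and 53.2%. Of 29 genes of the small subunit, 12, 11, 25 and 18 were listed, or 41.4%, 37.9%, 86.2% and 62.1%. The share of all coding genes was 43.9%, 30.1%, 51.9% and 31.6%. The small subunit lay near it in mouse dendrites and the large subunit near it in mouse somas, and no interval was computed. In mouse dendrites the large subunit lay below it. In mouse dendrites the large subunit nevertheless held 31.1% of the reads of the mitochondrial genes, beside 4.47% in mouse somas and 1.22% in rat dendrites. The large subunit held 3 of the 5 most read introns there. Intron 2 of Mrpl14 had 1186 reads, intron 2 of Mrpl49 had 903 and intron 8 of Mrpl1 had 836. The most read mitochondrial intron of mouse dendrites was intron 2 of Mrps18a with 1190 reads, against 72 reads for the most read intron of the gene in mouse somas, 14 in BAT cells and 762 in cardiomyocytes. The contig of Mrpl14 touched an annotated exon of the same gene, and those of Mrpl49, Mrpl1 and Mrps18a touched none. In rat somas 1 intron of Mrps18b, with 6644 reads in a contig of 306 nt, held 32.4% of the reads of the mitochondrial genes. Mrpl52 had 7760 reads in cardiomyocytes, 121 in BAT cells, 146 in mouse somas and 27 in rat dendrites.

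Of 12 annotated Timm genes, 4 were listed in mouse dendrites, 4 in mouse somas, 10 in BAT cells and 5 in cardiomyocytes, and of 10 Tomm genes 3, 4, 7 and 4. The shares were 33.3%, 33.3%, 83.3% and 41.7% for Timm and 30%, 40%, 70% and 40% for Tomm, beside 43.9%, 30.1%, 51.9% and 31.6% of all coding genes. Timm23, the channel of the inner membrane translocase, had 294 reads in cardiomyocytes, 216 in mouse somas, 9 in BAT cells, 4 in rat dendrites, 2 in mouse dendrites and none in rat somas. Tomm40, the channel of the outer membrane, had 21 reads in mouse dendrites, 159 in mouse somas, 541 in BAT cells and 228 in cardiomyocytes. Timm9, a small chaperone of the space between the membranes, had 3680 reads in cardiomyocytes and 2090 in BAT cells and no contig in neurons. Tomm70a, an import receptor, had 2171 reads in BAT cells, 782 in cardiomyocytes, 25 in rat dendrites, 220 in rat somas and 4 in mouse somas.

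Of the 179 genes, 28 were in all 6 lists, 19 in 5 and 27 in 1 list only. The same counts over all listed genes were not computed, so whether these are many or few cannot be said. The 47 genes in at least 5 lists comprised 20 of the 39 listed genes of complex I, 1 of 5 of complex II, 4 of 8 of complex III and 4 of 19 of complex IV. They also comprised 8 of 18 of ATP synthase, 1 of 44 of the large and 6 of 27 of the small ribosomal subunit. The remaining 3 were import genes, of which 11 Timm and 8 Tomm genes were listed. For the 28 genes in all 6 lists, the median number of reads in the most read intron was 46 in mouse dendrites, 67 in mouse somas, 21 in rat dendrites, 28.5 in rat somas, 590.5 in BAT cells and 453.5 in cardiomyocytes. By raw reads 17 of the 28 were highest in BAT cells and 9 in cardiomyocytes. With the same reads scaled to 10000 listed reads, 8 were highest in rat dendrites, 7 in mouse somas, 7 in BAT cells, 3 in rat somas and 3 in cardiomyocytes. The order of the lists therefore depended on whether reads were scaled to the list. Among the annotated genes, 18 were in no list, among them Cox8a, the widespread isoform of its subunit, and Cox4nb, which shares the prefix only as a neighbour of Cox4i1.

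**Figure D2:**
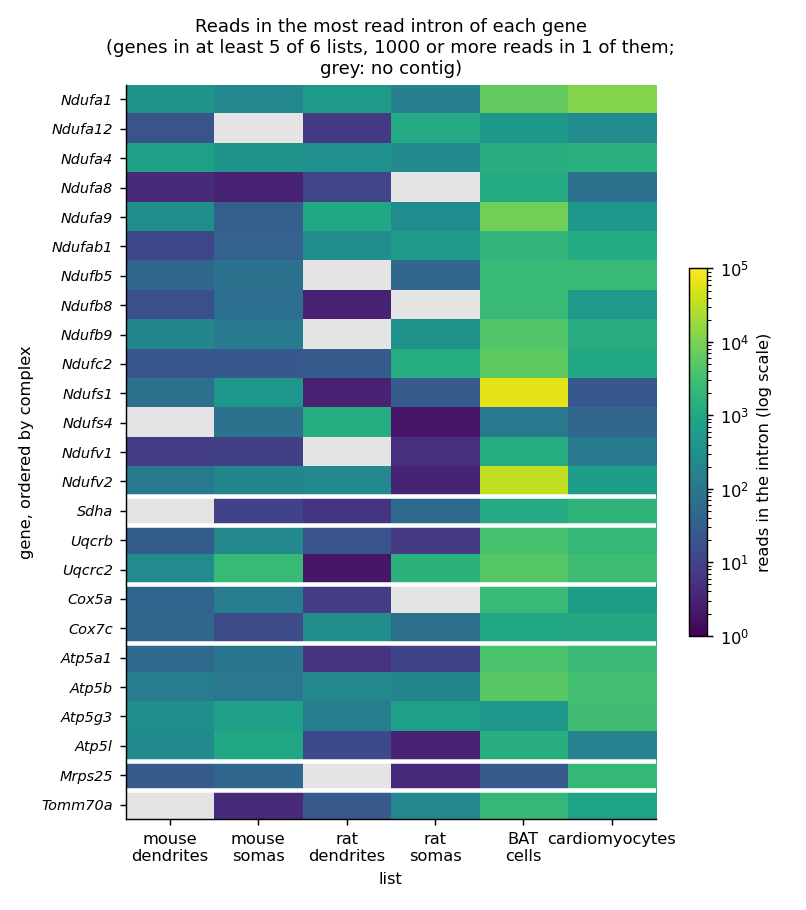
Reads in the most read intron, on a log colour scale, of the genes with a contig in at least 5 of the 6 lists and at least 1000 reads in an intron of 1 of them (rows, grouped by complex from complex I at the top to outer membrane import at the bottom, columns are lists, grey marks no contig). Ndufs1 and Ndufv2 stand out in BAT cells with 61138 and 34989 reads, and Ndufa1 and Ndufa4 have over 100 reads in each list.

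Introns of the mitochondrial genes were compared by their place in the transcript in the 4 mouse lists. The last intron held a contig in 49.4% of their listed transcripts in mouse dendrites (interval 39.2 to 59.7), beside 18.3% of all listed transcripts. The shares were 54.9% (interval 44.7 to 64.8) beside 18.6% in mouse somas, 76.9% (interval 69.8 to 82.7) beside 31.1% in BAT cells and 78.6% (interval 70.6 to 84.8) beside 26.9% in cardiomyocytes. The first intron held one in 35.6% of the mitochondrial transcripts beside 19.7% of all in mouse dendrites, 28.6% beside 15.6% in mouse somas, 45.0% beside 23.6% in BAT cells and 37.3% beside 16.2% in cardiomyocytes, before the number of introns was considered. Over all their introns, 33.4% held a contig in mouse dendrites beside 15.7% of the introns of all listed transcripts, 31.6% beside 11.9% in mouse somas, 60.7% beside 21.7% in BAT cells and 46.6% beside 14.6% in cardiomyocytes. Every listed transcript has at least 1 such intron by construction, and mitochondrial transcripts had 4.57 to 4.98 introns on average where all listed transcripts had 13.0 to 14.6, which raises their shares. Among transcripts of 3 to 6 introns, a choice made after seeing the data, 37.7% of all introns held a contig beside 29.0% in mouse dendrites, 38.8% beside 27.2% in mouse somas, 63.0% beside 38.4% in BAT cells and 49.6% beside 33.2% in cardiomyocytes. In such transcripts the last intron held a contig in 39.1% (interval 26.4 to 53.5) beside 30.2% in mouse dendrites, 51.0% (interval 37.5 to 64.4) beside 33.0% in mouse somas, 72.7% (interval 62.6 to 80.9) beside 43.3% in BAT cells and 71.4% (interval 60 to 80.7) beside 44.0% in cardiomyocytes. At like numbers of introns the share for all transcripts thus lay inside the interval of the mitochondrial genes in mouse dendrites and below it in the other 3 lists. For the first intron of such transcripts the shares were 28.3% (interval 17.3 to 42.5) beside 26.4% in mouse dendrites, 24.5% (interval 14.6 to 38.1) beside 22.7% in mouse somas, 39.8% (interval 30.2 to 50.2) beside 29.4% in BAT cells and 30.0% (interval 20.5 to 41.5) beside 21.4% in cardiomyocytes, so that the share for all transcripts lay below the interval in BAT cells alone.

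**Figure D3:**
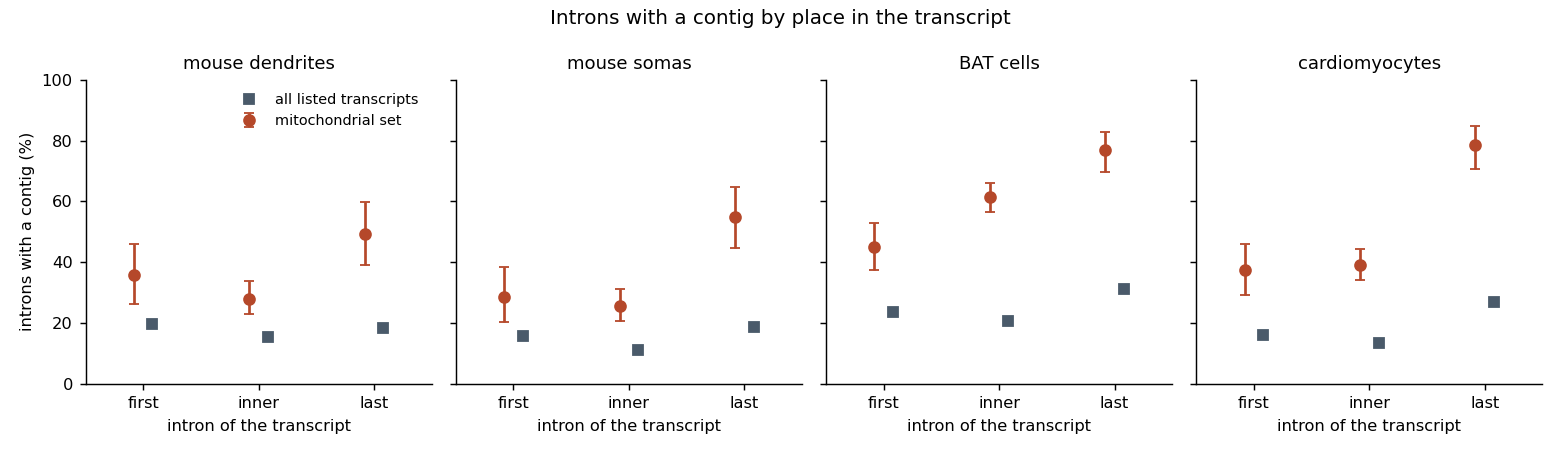
Percent of introns with a contig among the first, inner and last introns of the listed transcripts in the 4 mouse lists, for the mitochondrial genes (red circles, 95% Wilson interval) and all listed transcripts (grey squares). The last intron held a contig in 49.4% to 78.6% of the mitochondrial transcripts and in 18.3% to 31.1% of all transcripts, which have more introns.

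Contigs of the mitochondrial genes took up a larger part of their introns than contigs in general. The median share of the intron under a contig was 16.0% in mouse dendrites beside 4.98% for all contigs, 19.6% beside 6.37% in mouse somas, 30.7% beside 6.85% in BAT cells and 29.6% beside 8.24% in cardiomyocytes. A contig ran from the first to the last base of the intron in 19 of 163 cases in mouse dendrites, or 11.7% (interval 7.59 to 17.5), beside 0.583% of all contigs. In mouse somas 14.8% did (interval 10.2 to 21.1) beside 1.74%, in BAT cells 35.7% (interval 32 to 39.6) beside 7.81%, and in cardiomyocytes 33.2% (interval 28.3 to 38.5) beside 8.17%. Because reads up to 500 nt apart were joined and contigs end at the intron's borders, such a contig need not be covered by reads at every base. The introns of the mitochondrial genes with a contig were also shorter, with medians of 1402 to 1824 nt against 3557 to 5923 nt for all contigs.

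The comparison was therefore repeated within classes of intron length. For introns of 301 to 1000 nt, 8 of 34 contigs of mitochondrial genes ran end to end in mouse dendrites, or 23.5% (interval 12.4 to 40), beside 3.21% of all contigs in introns of that length. The shares were 38.9% (interval 24.8 to 55.1) beside 7.81% in mouse somas, 77.8% (interval 69.1 to 84.6) beside 32.6% in BAT cells and 68.5% (interval 57.1 to 78.0) beside 30.6% in cardiomyocytes. For introns of 1001 to 3000 nt the shares were 1.45% beside 0.0959% in mouse dendrites, 0% beside 0.216% in mouse somas, 21.0% beside 3.35% in BAT cells and 14.2% beside 2.68% in cardiomyocytes, where the 0 of 78 contigs in mouse somas has an upper bound of 4.69%. Introns of at most 300 nt, which are shorter than the joining distance, gave 52.6% (interval 31.7 to 72.7) beside 36.2% in mouse dendrites, 55.6% (interval 33.7 to 75.4) beside 45.7% in mouse somas, 90.1% (interval 81.7 to 94.9) beside 76.2% in BAT cells and 78.0% (interval 64.8 to 87.2) beside 68.6% in cardiomyocytes. In this class the share of all contigs lay inside the interval in every mouse list but BAT cells.

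**Figure D4:**
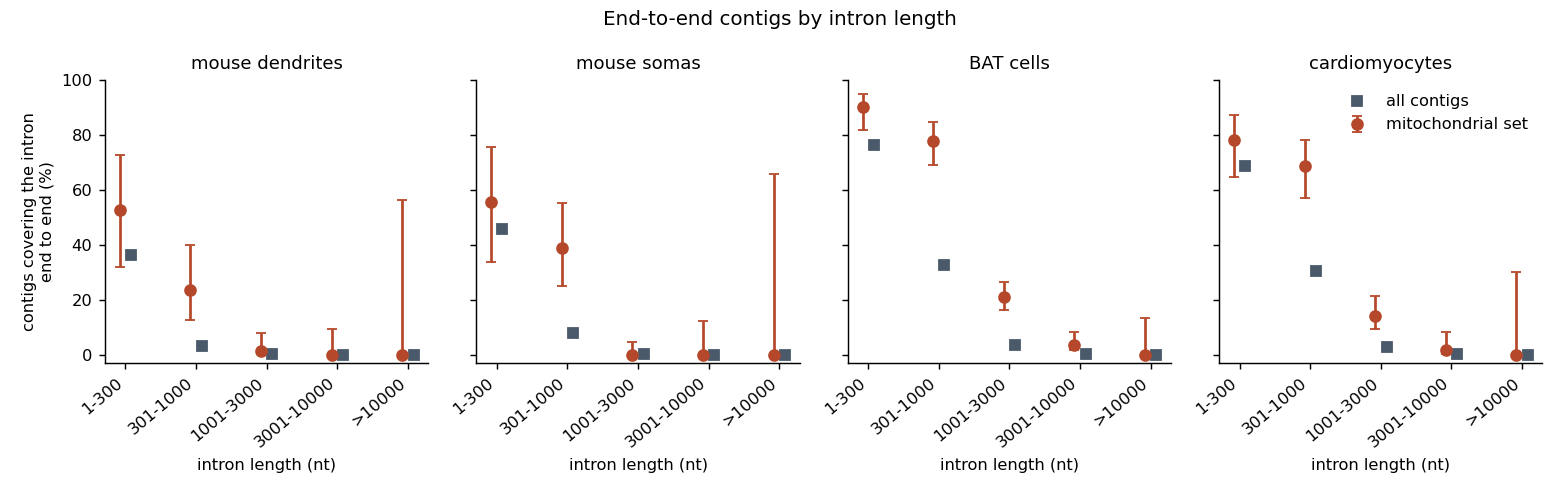
Percent of contigs that cover their intron end to end, by intron length, in the 4 mouse lists, for contigs of the mitochondrial genes (red circles, 95% Wilson interval) and all contigs (grey squares). In introns of 301 to 1000 nt the mitochondrial share was 23.5% in mouse dendrites and 77.8% in BAT cells, beside 3.21% and 32.6% of all contigs.

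The longest intron covered end to end in mouse dendrites was intron 1 of Ndufa1, of 1025 nt and with 382 reads. In BAT cells it was intron 2 of Ndufb6, of 4798 nt and with 1296 reads, and in cardiomyocytes intron 3 of Cox6c, of 3187 nt and with 2603 reads. Contigs of at least 1000 nt numbered 4 in mouse dendrites, 3 in mouse somas, 1 in rat dendrites, 5 in rat somas, 97 in BAT cells and 29 in cardiomyocytes, which is 16.2% of the mitochondrial contigs in BAT cells beside 6.38% of all contigs and 8.92% beside 7.27% in cardiomyocytes. In the neuronal lists, with 1 to 5 such contigs each, the shares were 2.45% beside 2.72% in mouse dendrites and 1.85% beside 4.57% in mouse somas. They were 0.685% beside 2.94% in rat dendrites and 4.13% beside 5.75% in rat somas. No interval was computed for these few contigs, so no deficit is read from them. The longest contigs of the neuronal lists were in intron 1 of Ndufa9 in mouse dendrites (1394 nt), intron 1 of Cox5a in mouse somas (1607 nt), intron 1 of Ndufa1 in rat dendrites (1071 nt) and intron 7 of Uqcrc2 in rat somas (1389 nt). Some introns held several contigs. Intron 3 of Ndufa12, of 17305 nt, held 8 in BAT cells and 4 in cardiomyocytes, intron 7 of Atp5f1 held 4 in mouse dendrites, intron 2 of Ndufs4 held 4 in rat dendrites and intron 6 of Ndufs3 held 3 in mouse somas.

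Of the 494 introns of mitochondrial genes listed in any mouse list, 66 were in all 4 lists, or 13.4% (interval 10.6 to 16.6), beside 3.70% of all introns in a mouse list. These 66 introns lay in 49 genes, 28 of them in genes of complex I and none in Mrpl genes. The contig ran end to end for 13 of them in mouse dendrites, 18 in mouse somas, 44 in BAT cells and 31 in cardiomyocytes, and for 12 in all 4 lists. By raw reads 48 were highest in BAT cells, 12 in cardiomyocytes, 4 in mouse somas and 2 in mouse dendrites. Scaled to 10000 listed reads the numbers were 35, 10, 16 and 5.

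Of the introns that were covered end to end in all 4 mouse lists, 3 short ones are shown whole, because their contigs run from splice site to splice site. They are shorter than the joining distance, so reads need not cover every base. The capitals mark the bases at each end, the GT of the donor and the AG of the acceptor splice site. Intron 4 of Ndufa13 lies at chr8:72418310-72418402, intron 6 of Ndufs8 at chr19:3909075-3909152 and intron 8 of Ndufv1 at chr19:4007916-4008047, all on the minus strand of mm9. Ndufs8 is a core subunit that holds iron-sulfur clusters of complex I, Ndufv1 binds NADH, and Ndufa13 is an accessory subunit.
Ndufa13 intron 4: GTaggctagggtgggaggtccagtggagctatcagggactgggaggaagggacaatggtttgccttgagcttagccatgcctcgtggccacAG
Ndufs8 intron 6: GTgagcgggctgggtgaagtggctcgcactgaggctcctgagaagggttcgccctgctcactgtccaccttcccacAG
Ndufv1 intron 8: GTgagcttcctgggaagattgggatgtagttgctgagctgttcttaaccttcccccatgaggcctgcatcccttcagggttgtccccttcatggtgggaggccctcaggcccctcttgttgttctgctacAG

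The reads of these short introns varied between lists. Intron 4 of Ndufa13 had 26 reads in mouse dendrites, 23 in mouse somas, 311 in BAT cells and 40 in cardiomyocytes. Intron 6 of Ndufs8 had 5, 4, 182 and 6, and intron 8 of Ndufv1 had 8, 9, 1259 and 111 in the same order. All 3 were highest in BAT cells. Longer introns covered end to end in all 4 lists included intron 9 of Atp5b, of 860 nt, with 123, 97, 5236 and 3103 reads, and intron 4 of Atp5g3, of 476 nt, with 309, 670, 451 and 2932. The contigs in these introns of Atp5b and Atp5g3 and in intron 8 of Ndufv1 touch an annotated exon of the same gene, so these sequences are in part exonic in another annotated transcript, whereas those of Ndufa13 and Ndufs8 touch none.

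Both introns of Ndufa1 were in all 4 mouse lists, on the minus strand of chromosome X. Intron 1 was covered end to end in mouse dendrites and BAT cells (4644 reads), and by contigs of 430 nt in mouse somas and 512 nt in cardiomyocytes. Intron 2, of 2132 nt, was covered end to end in BAT cells and cardiomyocytes, while in mouse dendrites and somas it held 31 and 15 reads in contigs of 305 and 303 nt. The borders of intron 2, at chrX:34729834-34729883 and chrX:34727722-34727771 of mm9, are shown because the most read mitochondrial contig of cardiomyocytes starts and ends there, with the exon bases in capitals. The third sequence, at chrX:34730376-34730476, lies inside intron 1 and shows in capitals a run of 21 adenines that the end-to-end contig of mouse dendrites includes.
Ndufa1 exon 2 into intron 2: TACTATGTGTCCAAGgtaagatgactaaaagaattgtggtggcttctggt
Ndufa1 intron 2 into exon 3: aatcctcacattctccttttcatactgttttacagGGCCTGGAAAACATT
Ndufa1 intron 1 adenine run: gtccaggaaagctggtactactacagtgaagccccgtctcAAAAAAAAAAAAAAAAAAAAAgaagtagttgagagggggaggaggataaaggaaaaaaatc

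Runs of adenines were counted because the amplification primer pairs with them. Runs of 10 or more adenines in the sense direction, located in the contig or no more than 300 nt past its 3′ end, were present for 14.1% of the mitochondrial contigs in mouse dendrites (interval 9.59 to 20.3) beside 17.4% of all contigs, and for 14.2% (interval 9.65 to 20.4) beside 29.7% in mouse somas. The shares were 8.01% (interval 6.10 to 10.5) beside 15.9% in BAT cells and 8.92% (interval 6.28 to 12.5) beside 24.0% in cardiomyocytes. The share of all contigs lay above the interval of the mitochondrial genes in every mouse list but mouse dendrites. The stretch past the contig can leave the intron. Inside the contig alone the shares were 6.13% (interval 3.37 to 10.9) beside 9.70% in mouse dendrites and 8.02% (interval 4.75 to 13.2) beside 12.2% in mouse somas. They were 6.18% (interval 4.51 to 8.40) beside 8.65% in BAT cells and 5.54% (interval 3.53 to 8.58) beside 15.5% in cardiomyocytes. Contigs of the mitochondrial genes reached the 3′ end of their intron in 35% of cases beside 4.84% of all contigs in mouse dendrites, in 47.5% beside 8.05% in mouse somas, in 60.8% beside 19.0% in BAT cells and in 65.5% beside 22.0% in cardiomyocytes. Their introns were shorter, as given above. An exon of any annotated transcript on the same strand was touched by 19.4% to 25.3% of the mitochondrial contigs of the 4 mouse lists, beside 4.36% to 10.2% of all contigs, so that some of these introns are exonic in another annotated transcript.

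Dendrites and somas were compared to see which mitochondrial genes had intronic sequence in both. In mouse, 70 genes were in both lists, which is 79.5% of those in dendrites (interval 70.0 to 86.7) beside 55.1% of all dendrite genes, and 76.1% of those in somas (interval 66.4 to 83.6) beside 80.4% of all soma genes. With at least 32 reads in an intron in both lists, 22 of 42 dendrite genes were in somas, or 52.4% (interval 37.7 to 66.6), beside 38.1% of all. In rat, 51 were in both, 66.2% of those in dendrites (interval 55.1 to 75.8) beside 48.3% of all, and 73.9% of those in somas (interval 62.5 to 82.8) beside 63.8% of all. At least 1 intron of the same number was listed in both for 60 of the 70 mouse genes, or 85.7% (interval 75.7 to 92.1) beside 73.2% of all shared genes. In rat this held for 47 of the 51 genes, or 92.2% (interval 81.5 to 96.9) beside 66.1%. Mouse mitochondrial transcripts had fewer introns than all listed transcripts, as given above, and these shares were not matched for it. The introns of rat transcripts were not counted.

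Reads summed over the introns of a gene were scaled to 10000 listed reads of the list. In mouse, 10 of the 70 shared genes were at least 4 times higher in dendrites, beside 33.2% of all shared genes, and 17 were at least 4 times higher in somas, beside 24.9% of all. The median log2 difference of dendrites over somas was -0.73 for the mitochondrial genes and 0.27 for all shared genes. In rat, 19 of 51 were at least 4 times higher in dendrites, beside 35.7% of all, and 10 were at least 4 times higher in somas, beside 24.6%, with medians of 1.22 and 0.73. The median for the mitochondrial genes thus lay on the soma side in mouse. In rat it lay on the dendrite side, as did that of all shared genes. The 17 of 70 in mouse and the 19 of 51 in rat lay near the shares of all shared genes. No interval was computed for the medians.

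Single genes lay far from the median. In mouse, Mrpl1 had 2.90 reads per 10000 listed reads in dendrites and 0.0108 in somas, and Mrpl20 had 1.61 and 0.0269. Uqcrc2 had 1.11 in dendrites and 14.9 in somas, Ndufa3 had 0.0810 and 8.87, and Timm23 had 0.00648 and 2.01. In rat, Ndufs4 had 13.5 in dendrites and 0.00955 in somas, and Cox16 had 1.49 and 0.00955, while Uqcrc2 had 0.0199 and 7.79 and Cox19 had 0.119 and 11. Uqcrc2 was thus higher in somas in both species, and Ndufs4 was high in the dendrites of rat alone. The lowest of these values stand for 2 reads, so the ratios carry large counting errors. Reads per list depend on both the number of cells or dendrites pooled and the RNA of each, which cannot be told apart here.

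**Figure D5:**
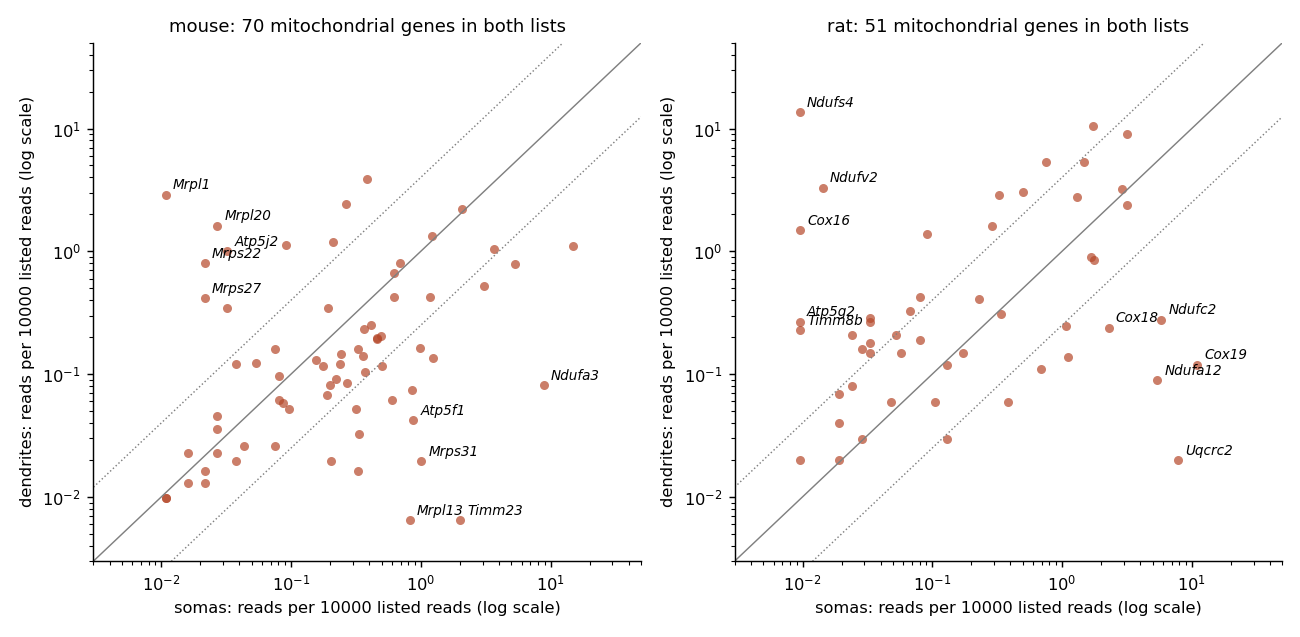
Reads per 10000 listed reads of each mitochondrial gene in somas (horizontal axis) and dendrites (vertical axis), both on log scales, for the 70 genes in both mouse lists and the 51 genes in both rat lists. The solid line marks equal values and the dotted lines a difference of 4 times, and the 5 genes farthest to each side are named. Ndufs4 in rat lies at 13.5 in dendrites and 0.00955 in somas, and Timm23 in mouse at 0.00648 and 2.01.

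Of the 144 mitochondrial genes in any neuronal list, 2 were in both dendrite lists and neither soma list, or 1.39% beside 5.01% of all genes in a neuronal list. Mrpl49 had 903 reads in mouse dendrites and 9 in rat dendrites, and Mrpl23 had 74 and 2. The opposite pattern, both soma lists and neither dendrite list, held for 4, or 2.78% beside 0.944%, which were Atp5s, Mrps18b, Ndufs7 and Ndufv3. All 4 neuronal lists held 28, or 19.4% beside 9.36%.

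Mouse and rat shared fewer mitochondrial genes than dendrites and somas of 1 species did. Of the 88 genes in mouse dendrites, 41 were also in rat dendrites, or 46.6% (interval 36.5 to 56.9) beside 32.1% of all genes, and these were 53.2% of the rat dendrite genes beside 61.6% of all. Of the 92 genes in mouse somas, 42 were also in rat somas, or 45.7% (interval 35.9 to 55.8) beside 30.1%, and these were 60.9% of the rat soma genes beside 52.3%. Symbols were matched as written in the lists. Atp5j, coupling factor 6 of ATP synthase, had 879 reads in rat dendrites and 639 in rat somas and no contig in any mouse list.

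BAT cells and cardiomyocytes shared 123 mitochondrial genes, which is 76.4% of those in BAT cells (interval 69.3 to 82.3) beside 53.2% of all BAT genes, and 96.9% of those in cardiomyocytes (interval 92.2 to 98.8) beside 87.7% of all cardiomyocyte genes. The same intron number was listed in both for 119 of the 123, or 96.7% (interval 91.9 to 98.7), beside 80.0% of all shared genes. This comparison too was not matched for the number of introns per transcript. Scaled to the list, 39 of the 123 were at least 4 times higher in BAT cells beside 34.3% of all shared genes, and 14 were at least 4 times higher in cardiomyocytes beside 28.3%. The median log2 difference of BAT cells over cardiomyocytes was 1.01 for the mitochondrial genes and 0.32 for all shared genes. Ndufs1 had 35.5 reads per 10000 in BAT cells and 0.0197 in cardiomyocytes, while Mrpl52 had 0.0795 and 6.55 and Mrps25 had 0.0146 and 1.84.

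Against mouse somas, which share C57BL/6 as background with the cardiomyocytes but not with the BAT cells, 36 of 89 shared mitochondrial genes were at least 4 times higher in BAT cells beside 26.7% of all shared genes, and 19 at least 4 times higher in somas beside 33.7%. For cardiomyocytes, 26 of 82 were at least 4 times higher than in somas beside 26.2% of all, and 18 at least 4 times higher in somas beside 37.0%. The median log2 differences over somas were 1.06 for BAT cells beside -0.38 for all shared genes, and 0.35 for cardiomyocytes beside -0.50. The comparisons share the soma list, and cell type, age, strain, time in culture and depth differ together between the lists. In all, 35 of the 179 mitochondrial genes were listed in BAT cells or cardiomyocytes and in no neuronal list, or 19.6% beside 14.9% of all genes, among them Cox17, a copper chaperone of complex IV, with 2458 and 831 reads in its most read intron.

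A list of 87 other mitochondrial genes outside the prefixes was set beside these. Of them, 53 had a contig in mouse dendrites, 44 in mouse somas, 45 in rat dendrites, 29 in rat somas, 72 in BAT cells and 61 in cardiomyocytes, and 12, 9, 6, 9, 42 and 24 had a highly read intron. In the 4 mouse lists 60.9%, 50.6%, 82.8% and 70.1% of them were listed, beside 43.9%, 30.1%, 51.9% and 31.6% of all coding genes. Of those listed, 22.6% in mouse dendrites, 20.5% in mouse somas, 13.3% in rat dendrites, 31.0% in rat somas, 58.3% in BAT cells and 39.3% in cardiomyocytes were highly read, beside 23.5%, 18.7%, 15.8%, 30.4%, 40.2% and 42.9% of all listed genes. Of 15 citrate cycle genes, 12 were listed in mouse dendrites, 10 in mouse somas, 9 in rat dendrites, 7 in rat somas and all 15 in BAT cells and in cardiomyocytes. In mouse dendrites and somas these were 80.0% and 66.7%, beside the 43.9% and 30.1% of all coding genes. Of 11 genes for mitochondrial DNA and transcription, the numbers were 4, 2, 3 and 1 in these neuronal lists and 6 in each of BAT cells and cardiomyocytes. In the 4 mouse lists these were 36.4%, 18.2%, 54.5% and 54.5%, beside the same shares of all coding genes as above. Slc25a4, the ADP/ATP carrier of heart and muscle, had 2693 reads in its most read intron in mouse dendrites, 7737 in mouse somas, 1847 in rat dendrites, 1218 in rat somas, 1361 in BAT cells and 31609 in cardiomyocytes, above every gene of the chosen prefixes in mouse dendrites, mouse somas, rat dendrites and cardiomyocytes. Ucp1, the uncoupling protein of brown fat, had 5610 reads in BAT cells, 899 in cardiomyocytes, 64 in mouse dendrites, 57 in rat dendrites and no contig in either soma list.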

How the data were processed

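The authors trimmed the reads, aligned them with RUM to mm9 or rn4 and kept uniquely mapped intronic reads outside predicted exons and polyadenylation sites, joined them into contigs and pooled libraries of a condition. The deposited values are raw read counts per intron, with no normalization, repeated on each of its contigs, and 1 list stands for a group. Lists hold no replicate, so no test was made. Prefix genes were taken by exact symbol, and reads were counted 1 time per transcript and intron. The deposited start and stop both count from 0 and both lie in the contig, so 1 was added to each. Mouse contigs were placed in introns of NCBIM37 (the mm9 assembly) with GENCODE, and a rat genome was not used here. Analyses were run with Python 3.11.15, pandas 2.3.3 and scipy 1.17.1, and were tested on simulated lists. By rule, the named genes were those with the 5 most read introns of each list and examples of genes in at least 5 lists and of introns in all 4 mouse lists, with genes in both dendrite lists and neither soma list, and introns with the most or the longest contigs. Others (tissue isoforms, succinate dehydrogenase, import channels, genes with large differences) were chosen after their values were seen. The members and gene lists were chosen with earlier results of these data known. Alternatives were a minimum of 32 reads, a limit of 400 nt, leaving out the most read intron and restricting the number of introns. Others were summing reads over introns, keeping introns with a single contig and counting introns that share a contig 1 time. Introns with a contig at an annotated exon were also left out, and genes without an intron of at least 1000 nt. Some items are not reported here.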

Additional observations from a re-analysis of the deposited data

How the results depend on the processing

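Of 86 values computed under alternatives, 54 moved by less than their counting interval or, for counts of genes or introns, by less than 1.5 times, and 32 moved further. With at least 32 reads in an intron, the genes with a contig numbered 42 in mouse dendrites, 47 in mouse somas, 19 in rat dendrites and 31 in rat somas, their introns numbered 45, 55, 27 and 39, and those of BAT cells and cardiomyocytes 283 and 160. Mitochondrial genes were then 0.781% of all genes in mouse dendrites and 0.872% in rat dendrites, and 52.4% of the mouse dendrite genes were also in somas. When contigs longer than 400 nt were dropped, a step of the study for whole cells, the introns numbered 253 in BAT cells and 169 in cardiomyocytes, and the share of genes with a highly read intron was 7.69% in mouse dendrites, 4.55% in rat dendrites, 6.90% in rat somas, 26.0% in BAT cells and 20.2% in cardiomyocytes. Under that limit 37.2% of the annotated genes had a contig in mouse somas, 64.8% in BAT cells and 50.5% in cardiomyocytes, and with it in somas alone 61.4% of the mouse and 54.5% of the rat dendrite genes were also in somas. Without the most read intron, reads per 10000 listed reads went from 38.5 to 34.6 in mouse dendrites, from 64.6 to 51.9 in mouse somas, from 83.9 to 71.4 in rat dendrites, from 98.0 to 66.3 in rat somas, from 159 to 125 in BAT cells and from 74.4 to 64.7 in cardiomyocytes. In transcripts of 3 to 6 introns, chosen after seeing the data, 39.1% of last introns in mouse dendrites held a contig.

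Leaving out a replicate was not run, and no paired analysis was possible because each list pools libraries of its group. A gene is listed more easily in a larger list, so absence from a list means only that no contig was kept at its depth.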
